A study of Mus musculus with 8 samples.

Results

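The genes described here build cholesterol and fatty acids, together with the sterol regulatory element-binding protein (SREBP) system that controls them. They are 34 genes chosen by symbol, of 24421 in the table, and fall into 5 groups by role: 6 of SREBP control, 8 enzymes on the way to squalene, 10 from squalene to cholesterol, 4 of fatty acid synthesis, and 6 of fatty acid elongation and desaturation. All 34 were in the table and all 34 had at least 1 CPM (a gene's reads scaled to a fixed total of reads per library) in at least 2 of the 8 libraries. The member nearest to that limit was Tm7sf2, whose second-highest library held 7.71 CPM, and no member lay outside it.

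The cells were mouse bone marrow-derived macrophages, grown from marrow precursors. Knockout cells came from Rbpj f/f;LysMCre mice, in which Cre driven by the myeloid LysM gene removes floxed Rbpj, the gene of the DNA-binding partner of Notch receptors; wild-type controls are labelled WT with no further allele given. The 4 groups were knockout with TNF at 40 ng/ml for 2 days, knockout at day 0, wild type with the same TNF treatment, and wild type at day 0, with 2 libraries each and no TNF at day 0. Ages and sexes are not given in the sources used here, and neither is the marrow culture before day 0. There is no group cultured for 2 days in the absence of TNF. TNF and time in culture therefore cannot be told apart, and a TNF difference below includes both.

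SREBP-1 and SREBP-2 are transcription factors made as membrane proteins of the endoplasmic reticulum. When sterols are scarce, SCAP carries them to the Golgi, where proteases free the part that enters the nucleus; when sterols are plentiful, INSIG proteins hold SCAP back. SREBP-2 mainly drives the sterol enzymes and SREBP-1 mainly the genes of fatty acid synthesis and desaturation, and both usually act beside NF-Y, which binds CCAAT. Macrophages use these pathways when they grow, remodel membranes, take up lipid or respond to inflammatory signals.

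Promoters are shown for 4 enzymes of different steps, to let a reader see the letters through which SREBP and NF-Y are known to act. The windows hold the 250 bases before the annotated start, from RefSeq on GRCm38.p6, and none of the 4 overlaps an annotated exon. Hmgcs1 lies at chr13:119690101-119690350 on the plus strand, Ebp at chrX:8193513-8193762, Sc5d at chr9:42264301-42264550 and Fasn at chr11:120824548-120824797, these last on the minus strand. Capitals mark CCAAT on either strand and, in Hmgcs1, the sterol regulatory element TCACCCCAC as well.
Hmgcs1: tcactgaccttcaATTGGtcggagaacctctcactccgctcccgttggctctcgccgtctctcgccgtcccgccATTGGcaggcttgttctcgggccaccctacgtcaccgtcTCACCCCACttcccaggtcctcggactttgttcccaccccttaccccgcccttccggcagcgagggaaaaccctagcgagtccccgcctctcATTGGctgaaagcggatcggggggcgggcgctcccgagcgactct
Ebp: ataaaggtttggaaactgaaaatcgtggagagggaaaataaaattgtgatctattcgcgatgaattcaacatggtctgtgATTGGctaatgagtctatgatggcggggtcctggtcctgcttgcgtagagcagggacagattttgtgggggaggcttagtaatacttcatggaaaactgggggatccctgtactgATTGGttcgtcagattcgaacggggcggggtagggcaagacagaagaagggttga
Sc5d: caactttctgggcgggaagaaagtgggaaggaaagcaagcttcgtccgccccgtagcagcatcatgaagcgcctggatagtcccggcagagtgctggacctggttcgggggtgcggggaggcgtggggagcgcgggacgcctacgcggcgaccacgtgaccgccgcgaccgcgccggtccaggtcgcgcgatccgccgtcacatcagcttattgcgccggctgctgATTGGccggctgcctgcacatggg
Fasn: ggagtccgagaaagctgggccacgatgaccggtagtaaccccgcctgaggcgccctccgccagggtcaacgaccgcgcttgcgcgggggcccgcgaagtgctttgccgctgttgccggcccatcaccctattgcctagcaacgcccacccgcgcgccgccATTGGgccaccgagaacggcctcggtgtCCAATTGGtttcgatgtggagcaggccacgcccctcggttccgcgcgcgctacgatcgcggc
RefSeq windows from 250 bases before to 50 after the start were found for 27 of the 34 genes, 35 windows in all. CCAAT, searched on both strands, stood in 65.7% of the 35 windows and in 37.4% of all 32851 windows in the table. By gene, 22 of 27 (81.5%) held it, beside 41.1% of all 27025 genes with such windows. TCACNCCAC, searched on both strands, stood in 2.86% of member windows and 1.24% of all windows, and Hmgcs1 was the gene that held it, with its first base at -137 from the start. CACGTG stood in 20.0% of member windows and 7.15% of all, and TGGGAA, the core letters of RBP-J binding, in 31.4% of member windows and 25.6% of all. CCAAT and TGGGAA matches are short and common, and a match describes letters only.

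Library depth was 9855859 to 35653203 reads. The lowest member value was 8 reads, for Scd1 in TNF-treated knockout replicate 2, and it was the 1 value of 272 under 10 reads. Rbpj itself stood at 21.4 to 38.9 CPM in the 4 knockout libraries and 178 to 226 CPM in the 4 wild-type libraries. All 8 macrophage markers were present in every library. The 10 osteoclast markers summed to 18804 and 45864 CPM in TNF-treated knockout cells, 151 and 248 CPM in day 0 knockout cells, 6579 and 4965 CPM in TNF-treated wild-type cells, and 144 and 219.5 CPM in day 0 wild-type cells. The 10 neutrophil markers, 9 of them in the table, summed to 36.0 and 50.4 CPM in TNF-treated knockout cells, 190.4 and 1008 CPM in day 0 knockout cells, 67.9 and 139.8 CPM in TNF-treated wild-type cells, and 149 and 838 CPM in day 0 wild-type cells. B lymphoid markers summed to at most 10.5 CPM, T and NK markers to at most 8.27 CPM, erythroid markers to at most 2.07 CPM and mast cell markers to at most 5.51 CPM. Dendritic cell markers summed to 108 and 414 CPM in TNF-treated knockout cells, 34.5 and 145 CPM in day 0 knockout cells, 61.2 and 569 CPM in TNF-treated wild-type cells, and 19.6 and 30.7 CPM in day 0 wild-type cells. Stromal and adipocyte markers summed to 1602 to 4911 CPM, of which Lpl, also made by macrophages, was 1459 to 4879 CPM. Lpl was higher in replicate 2 of every group, and the collagen genes Col1a1, Col1a2 and Col3a1 in replicate 1. Col1a1 stood at 84.0 and 1.63 CPM in TNF-treated knockout cells and 76.2 and 1.29 CPM in day 0 knockout cells. In wild type it stood at 69.1 and 12.8 CPM with TNF and 57.3 and 1.89 CPM at day 0. The other markers of this kind reached at most 6.57 CPM. The part of these cells in the differences below was not tested. In such bulk samples, fewer cells of a type and less RNA per cell cannot be told apart.

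Replicate 2 stood below replicate 1 more often for these genes than over the whole table. Of the 34 members, 20 (58.8%) were lower in replicate 2 in all 4 groups, against 36.4% of the 12194 genes tested, and 0 members were higher in all 4. The median member differed by -0.31 log2 units in TNF-treated knockout cells, -0.72 in day 0 knockout cells, -1.30 in TNF-treated wild-type cells and -0.99 in day 0 wild-type cells. Fads2, Scd1, Fasn and Scd2 had the largest differences, with medians over the groups of -2.68, -2.65, -2.64 and -2.18. The study consisted of 2 independent experiments, so results below are given from a fit without a replicate term, from a second fit that has the replicate number as a blocking term (the block), and within each replicate number. Separate animals are stated nowhere in the labels, and the p-values then reflect only how far these samples vary.

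**Figure D1:**
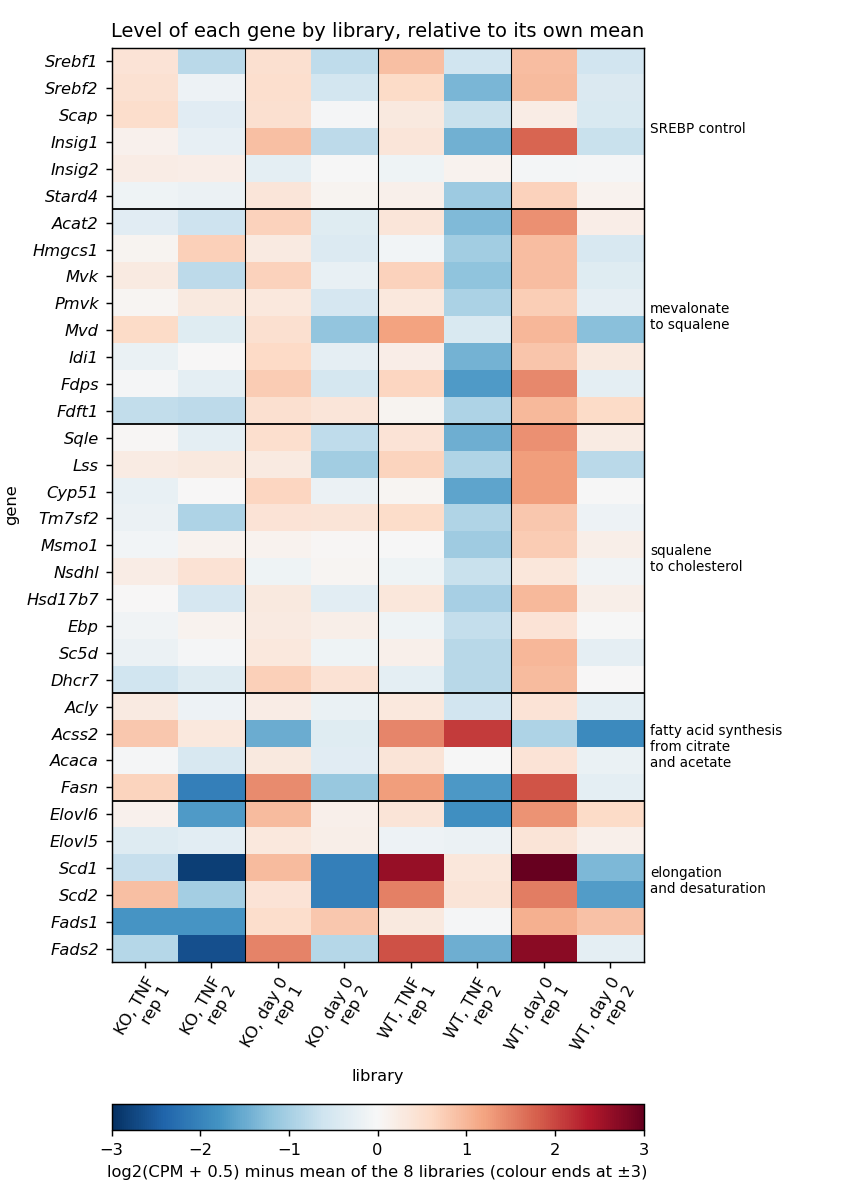
Colour shows log2(CPM + 0.5) of each gene in each of the 8 libraries, minus the gene's mean over them, with groups from knockout with TNF on the left to wild type at day 0 on the right. Fads1 was lowest in the 2 TNF-treated knockout libraries, Acss2 highest in the 2 TNF-treated wild-type libraries, and replicate 1 of wild type at day 0 was the highest library for most sterol enzymes.

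Over the 34 genes, the median difference with TNF was negative in both genotypes. With TNF and in the blocked fit, 3 of the 4 fatty acid desaturases (Fads1, Fads2 and Scd1) passed as lower in the knockout than in wild type. In that fit 3.75% of all genes were called lower, and without the block 0 members passed. The 3 calls depended on single libraries, as given below. The median member stood at -0.22 log2 units after TNF in the knockout (24 of 34 negative), beside -0.10 for all genes tested. In wild type it stood at -0.68 (28 of 34 negative), beside -0.12 for all genes. Scaling by TMM factors moved the all-gene median of the wild-type comparison to -0.01, a shift of about 0.1, and the member median to -0.57 with 26 of 34 negative. In knockout against wild type the median member stood at 0.14 with TNF, beside 0.02 for all genes, and at -0.32 at day 0, beside 0.01. The comparisons share libraries with each other and are not independent. Single libraries weighed on these medians. The wild-type TNF median was -0.060 and -0.13 without wild-type day 0 replicate 1 or wild-type TNF replicate 2, and -1.30 and -1.24 without the other library of either group. The knockout TNF median was -0.36 and 0.02 when knockout TNF replicate 1 or 2 was left out, and 0.16 and -0.59 when replicate 1 or 2 of the day 0 knockout was. With TNF, knockout against wild type was -0.08 without knockout TNF replicate 1, 0.35 without knockout TNF replicate 2, 0.75 without wild-type TNF replicate 1 and -0.48 without wild-type TNF replicate 2. At day 0 it was -0.68 and 0.06 without knockout replicate 1 or 2, and 0.33 and -0.81 without wild-type replicate 1 or 2.

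Single genes passed the test rarely. TNF in the knockout called 1 member lower without the block (limma, adjusted p under 0.05), where 2.01% of all genes were called lower and 3.09% higher. With the block it called 6 lower and 0 higher, where 13.7% of all genes were lower and 12.2% higher. TNF in wild type called 0 members with limma without the block (1 higher and 4 lower at unadjusted p under 0.05; edgeR 0; DESeq2 1 higher and 1 lower), where 0.812% of all genes were higher and 0.369% lower. With the block it called 1 higher and 4 lower, where 5.54% of all genes were higher and 4.71% lower. The members called lower with the block were thus 17.6% of 34 in the knockout, near the background, and 11.8% in wild type. With the block, the knockout count fell to 1 without knockout day 0 replicate 1 or 2. Without knockout TNF replicate 1 it was 2 lower, Fads1 and Fads2, and 2 higher, Hmgcs1 (log2 1.28, limma adjusted p = 0.0271) and Lss (1.51, 0.0206), and the median over the 34 in that blocked fit was 0.12. The wild-type count was 0 without wild-type TNF replicate 2 or day 0 replicate 2, 2 when wild-type day 0 replicate 1 or a day 0 knockout library was left out, and 9 when a TNF-treated knockout library was. DESeq2 with the block called 11 members in wild type, and limma on the 4 wild-type libraries alone called 12.

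With all libraries, limma and edgeR called none of the 6 SREBP control genes in any comparison. With the block, limma called Insig1 lower with TNF in wild type on the 4 wild-type libraries alone (adjusted p = 0.0220) and without either TNF-treated knockout library (0.0345 and 0.0342), and Stard4 without wild-type TNF replicate 1 (0.0423). Srebf2, which encodes SREBP-2, stood at 254 and 166 CPM in TNF-treated knockout cells and at 259.8 and 125 CPM in day 0 knockout cells. In wild type Srebf2 stood at 276 and 70.9 CPM with TNF and at 358 and 137 CPM at day 0. It was lower with TNF in both wild-type replicates, and in the knockout higher in replicate 2 and nearly level in replicate 1. Srebf1, which encodes SREBP-1, stood at 119.7 and 51.7 CPM in TNF-treated knockout cells and 126 and 53.3 CPM in day 0 knockout cells. Its wild-type values were 169.9 and 59.9 CPM with TNF and 173 and 60.7 CPM at day 0. Srebf1 was the steadiest of the regulators against TNF, with log2 differences of -0.06 ± 0.15 in the knockout and -0.02 ± 0.15 in wild type (SE with the block, limma adjusted p = 0.818 and 0.945).

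Insig1, the INSIG gene that SREBP itself induces, stood at 68.3 and 52.0 CPM in TNF-treated knockout cells and 116 and 35.9 CPM in day 0 knockout cells. Wild-type Insig1 stood at 79.3 and 22.4 CPM with TNF and 208 and 38.9 CPM at day 0. The groups overlapped, and the wild-type log2 difference of -1.08 ± 0.43 did not pass (SE with the block, limma adjusted p = 0.156). Insig2, the second INSIG gene, stood at 48.0 and 47.6 CPM in TNF-treated knockout cells, above 33.8 and 40.8 CPM in day 0 knockout cells. Its wild-type values were 37.9 and 44.4 CPM with TNF and 39.6 and 40.6 CPM at day 0, with no separation. The knockout log2 difference of Insig2 was 0.36 ± 0.16 (SE with the block, limma adjusted p = 0.135).

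Scap, the escort of SREBP, stood at 74.2 and 40.1 CPM in TNF-treated knockout cells and 71.2 and 49.4 CPM in day 0 knockout cells. Wild-type Scap stood at 62.4 and 32.0 CPM with TNF and 59.9 and 36.8 CPM at day 0. It was higher in the knockout in both replicates at both times, by 0.28 log2 units with TNF and 0.33 at day 0, differences that did not pass (limma adjusted p with the block 0.321 and 0.893). Stard4, a soluble carrier that moves sterols between membranes, stood at 53.5 and 51.7 CPM in TNF-treated knockout cells, below 75.3 and 61.9 CPM in day 0 knockout cells. Wild-type Stard4 stood at 64.4 and 26.9 CPM with TNF and 94.8 and 62.6 CPM at day 0, groups that overlapped.

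The sterol enzymes were lower with TNF in wild type in both replicates almost without exception. Of the 18 enzymes from acetyl-CoA to cholesterol, 17 were lower with TNF in replicate 1 and 17 in replicate 2, with medians of -0.70 and -0.85 log2 units; over all genes 50.6% and 65.5% were lower. The exception in both was Mvd, mevalonate diphosphate decarboxylase, at 54.1 and 16.6 CPM with TNF and 46.1 and 9.27 CPM at day 0. Over all 34 genes, 79.4% were lower with TNF in both wild-type replicates and 47.1% in both knockout replicates, and of all genes tested 43.6% and 45.4% were. In the knockout 16 of the 18 were lower in replicate 1, with a median of -0.44, and 7 of 18 in replicate 2, with a median of 0.14, while 53.1% and 58.8% of all genes were lower. In wild type 17 of 18 enzymes were negative under TMM and median-ratio scaling, with edgeR and with DESeq2. In the knockout the number negative was 13 in CPM and 11 under both scalings. The wild-type median over the 18, -0.84 with all libraries, was -0.27 without TNF replicate 2 and -0.36 without day 0 replicate 1, with 12 and 15 negative. Leaving out TNF replicate 1 or day 0 replicate 2 instead gave -1.41 and -1.36, with all 18 negative. The knockout median of -0.22 turned to 0.08 without day 0 replicate 1, with 7 of 18 negative, and was -0.58 without day 0 replicate 2.

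**Figure D2:**
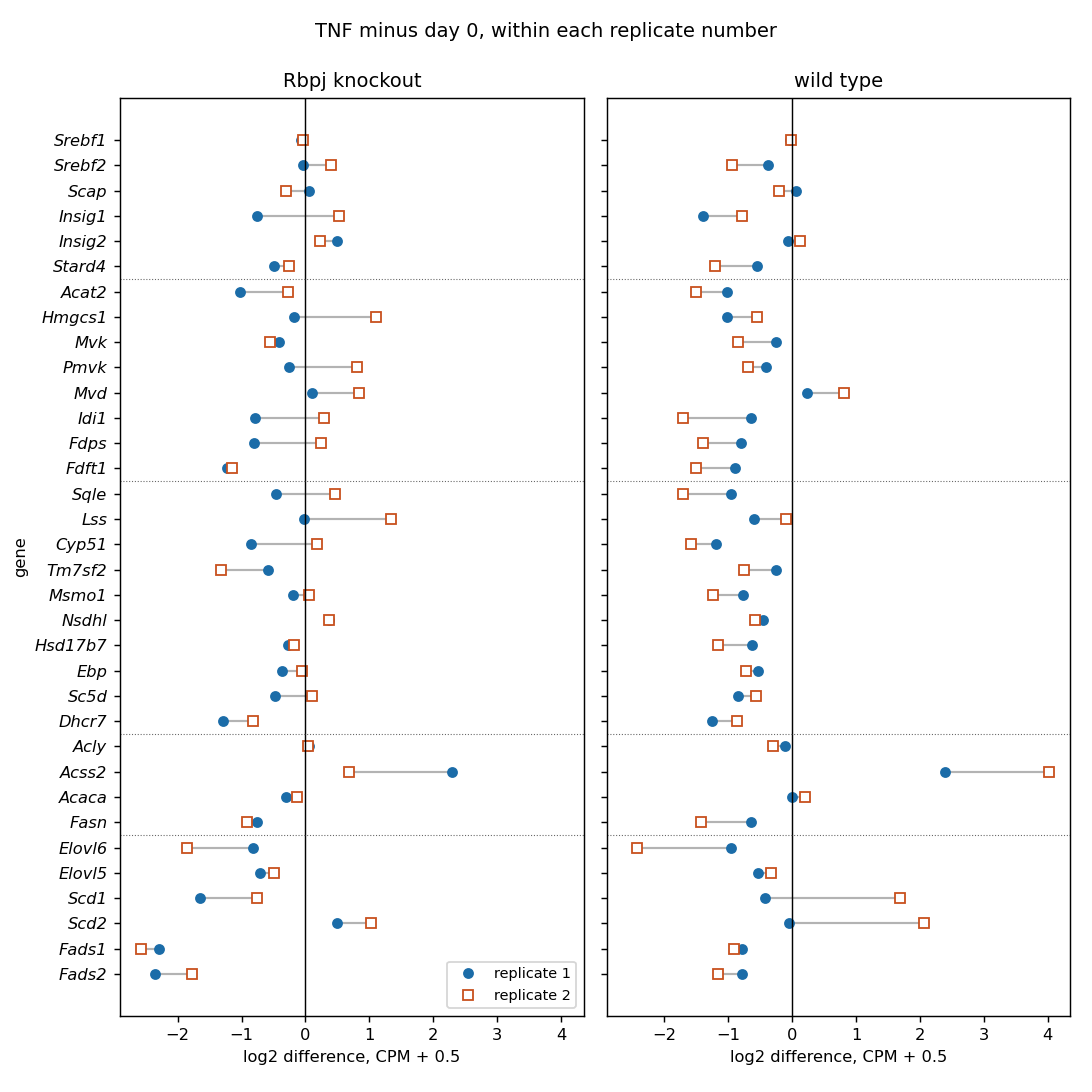
Each row is a gene and each point the log2 difference, TNF minus day 0, within replicate 1 (filled circles) or replicate 2 (open squares), for the knockout on the left and wild type on the right; dotted lines divide the 5 role groups. In wild type 27 of 34 genes lie left of 0 in both replicates, and in the knockout 16 of 34, a share near the 45.4% of all genes tested.

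On the way to squalene, Fdft1 was the gene that passed. It encodes squalene synthase, the enzyme that commits farnesyl diphosphate to sterols. Fdft1 stood at 50.5 and 48.6 CPM in TNF-treated knockout cells, below 118 and 108 CPM in day 0 knockout cells. In wild type it stood at 89.4 and 44.0 CPM with TNF, below 166 and 125 CPM at day 0. The TNF and day 0 libraries did not overlap in either genotype, and the log2 differences were -1.19 ± 0.36 in the knockout and -1.20 ± 0.36 in wild type. Neither passed without the block (limma adjusted p = 0.126 and 0.227), and both fell with it (0.0172 and 0.0327). The blocked knockout call was lost without knockout TNF replicate 1 (adjusted p = 0.0781) or without knockout day 0 replicate 1 or 2 (0.0544 and 0.137). The blocked wild-type call was lost without knockout day 0 replicate 1 or 2, wild-type TNF replicate 2, or wild-type day 0 replicate 1 or 2 (0.0530 to 0.175). Fdft1 shares 18.3% of its exon bases with Ctsb, an abundant lysosomal protease gene of macrophages on the opposite strand, and strand use in counting is not given, so its level is uncertain.

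The other 7 genes of this stage were Acat2, which joins acetyl-CoA units, Hmgcs1, which makes HMG-CoA, Mvk, Pmvk and Mvd, which phosphorylate and decarboxylate mevalonate, Idi1, an isomerase, and Fdps, which makes farnesyl diphosphate. With all libraries none passed in limma or edgeR in any comparison, with or without the block. On the 4 wild-type libraries alone limma with the block called Acat2 and Fdps lower with TNF (adjusted p = 0.0195 and 0.0256), and Acat2 also without either TNF-treated knockout library (0.0267 in both). DESeq2 with the block called Acat2 lower with TNF in wild type (adjusted p = 0.0134). Their TNF log2 differences ran from -0.65 for Acat2 to 0.46 for Mvd and Hmgcs1 in the knockout, and from -1.26 for Acat2 to 0.52 for Mvd in wild type. Among the 7, Hmgcs1 was the gene whose knockout TNF difference varied most between replicates, -0.18 log2 units in replicate 1 and 1.11 in replicate 2: it stood at 123 and 189 CPM in TNF-treated knockout cells and 139 and 87.4 CPM in day 0 knockout cells. In wild type Hmgcs1 stood at 109.6 and 56.3 CPM with TNF and 222 and 82.5 CPM at day 0. Fdps and Tm7sf2 share 26.7% and 12.1% of their exon bases with another gene on the same strand, and Hmgcs1 shares 12.1% with an antisense gene. Acat2 has the near copy Acat3, and counting of shared reads is not given.

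From squalene to cholesterol, all 10 enzymes were lower with TNF in both wild-type replicates. Sqle, squalene epoxidase, stood at 73.3 and 58.1 CPM in TNF-treated knockout cells and 101 and 42.2 CPM in day 0 knockout cells. Wild-type Sqle stood at 94.9 and 25.5 CPM with TNF and 185 and 84.7 CPM at day 0. Its knockout values overlapped between TNF and day 0, and the wild-type difference of -1.34 ± 0.33 narrowly missed the threshold (SE with the block, limma adjusted p = 0.0541). DESeq2 with the block called it lower in wild type (adjusted p = 0.00903), as did limma with the block on the 4 wild-type libraries alone (0.0111) and without wild-type TNF replicate 1 or either TNF-treated knockout library (0.0204 to 0.0454).

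Cyp51, the lanosterol demethylase, stood at 60.5 and 70.5 CPM in TNF-treated knockout cells and 109.9 and 62.0 CPM in day 0 knockout cells. Cyp51 in wild type stood at 73.5 and 23.0 CPM with TNF and 169 and 69.7 CPM at day 0. Within replicate 2, Cyp51 was higher with TNF in the knockout and lower in wild type. Its wild-type log2 difference was -1.39 ± 0.41 (SE with the block, limma adjusted p = 0.0830; DESeq2 with the block 0.0282). Limma with the block called it on the 4 wild-type libraries alone (0.00577) and without either TNF-treated knockout library (0.0194 and 0.0197).

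Dhcr7, the reductase of the last step to cholesterol, stood at 23.2 and 26.6 CPM in TNF-treated knockout cells, below 57.7 and 47.5 CPM in day 0 knockout cells. Dhcr7 in wild type stood at 28.6 and 19.5 CPM with TNF, below 68.6 and 35.6 CPM at day 0. The groups did not overlap in either genotype, and the log2 differences were nearly equal, -1.06 ± 0.27 in the knockout and -1.05 ± 0.27 in wild type (SE with the block). Dhcr7 fell in the knockout with the block (limma adjusted p = 0.0327) and missed the threshold in wild type (0.0589; DESeq2 with the block 0.0255; limma with the block on the 4 wild-type libraries 0.0258, and without knockout TNF replicate 1 or 2 0.0336 and 0.0338). Without the block the adjusted p was 0.191 in the knockout and 0.325 in wild type. The blocked knockout call was lost without any 1 of 5 libraries, knockout TNF replicate 1, knockout day 0 replicates 1 and 2 and wild-type TNF replicates 1 and 2 (adjusted p 0.0551 to 0.190), under both other scalings (0.0555 and 0.0599), with no filter (0.0513) and with edgeR (0.0706).

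The remaining 7 of this stage were Lss, which closes the sterol ring, Tm7sf2 and Msmo1, a reductase and an oxidase, Nsdhl and Hsd17b7, which finish removing methyl groups, Ebp, an isomerase, and Sc5d, a desaturase. With all libraries none of the 7 passed in limma or edgeR with or without the block. With the block, limma called Msmo1 lower with TNF in wild type on the 4 wild-type libraries alone (adjusted p = 0.0228), Hsd17b7 lower there without wild-type TNF replicate 1 (0.0427) and Lss higher in the knockout without knockout TNF replicate 1 (0.0206). DESeq2 with the block called Msmo1 and Hsd17b7 lower with TNF in wild type (adjusted p = 0.0456 and 0.0179). Their TNF log2 differences ran from -0.95 for Tm7sf2 to 0.66 for Lss in the knockout and from -1.004 for Msmo1 to -0.34 for Lss in wild type.

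Between genotypes, the sterol enzymes differed in opposite directions in the 2 replicates once TNF was present. Of the 18 enzymes, 3 were higher and 15 lower in TNF-treated knockout than wild-type cells in replicate 1, with a median of -0.35 log2 units. In replicate 2, 17 were higher and 1 lower, with a median of 0.97. Of the 12194 genes tested, 6099 were lower in replicate 1 and 5762 in replicate 2. At day 0, all 18 were lower in the knockout in replicate 1 (median -0.57) and 10 of 18 in replicate 2 (median -0.15), beside 42.7% and 51.0% of all genes. Limma called 0 members at day 0, with 0 at unadjusted p under 0.05, and edgeR and DESeq2 called 0. With the block the limma count was 0, with 4 lower at unadjusted p under 0.05, and again 0 by edgeR and DESeq2. The members furthest apart at day 0 were Scd1 (log2 -1.38 ± 0.54, SE with the block), Sqle (-0.93 ± 0.33) and Fads2 (-0.89 ± 0.39), all lower in the knockout (limma adjusted p with the block 0.816, 0.750 and 0.839). In the fit over both replicates, all 6 elongation and desaturation genes were lower in the knockout at day 0, with a median of -0.59. With TNF all 6 were lower, with a median of -1.45. In replicate 2 alone, 5 of 6 were lower at each time. The day 0 median was 0.09 without knockout replicate 2 and 0.35 without wild-type replicate 1, with 4 of 6 positive in both. It was -1.39 without knockout replicate 1. The TNF median was -0.65 without knockout replicate 2 and -0.38 without wild-type replicate 1, with 5 of 6 negative in both. Without the other library of either group it was -1.93 and -1.81, with all 6 negative. Of all genes, 0% were called at day 0 without the block and 0.0082% with it.

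**Figure D3:**
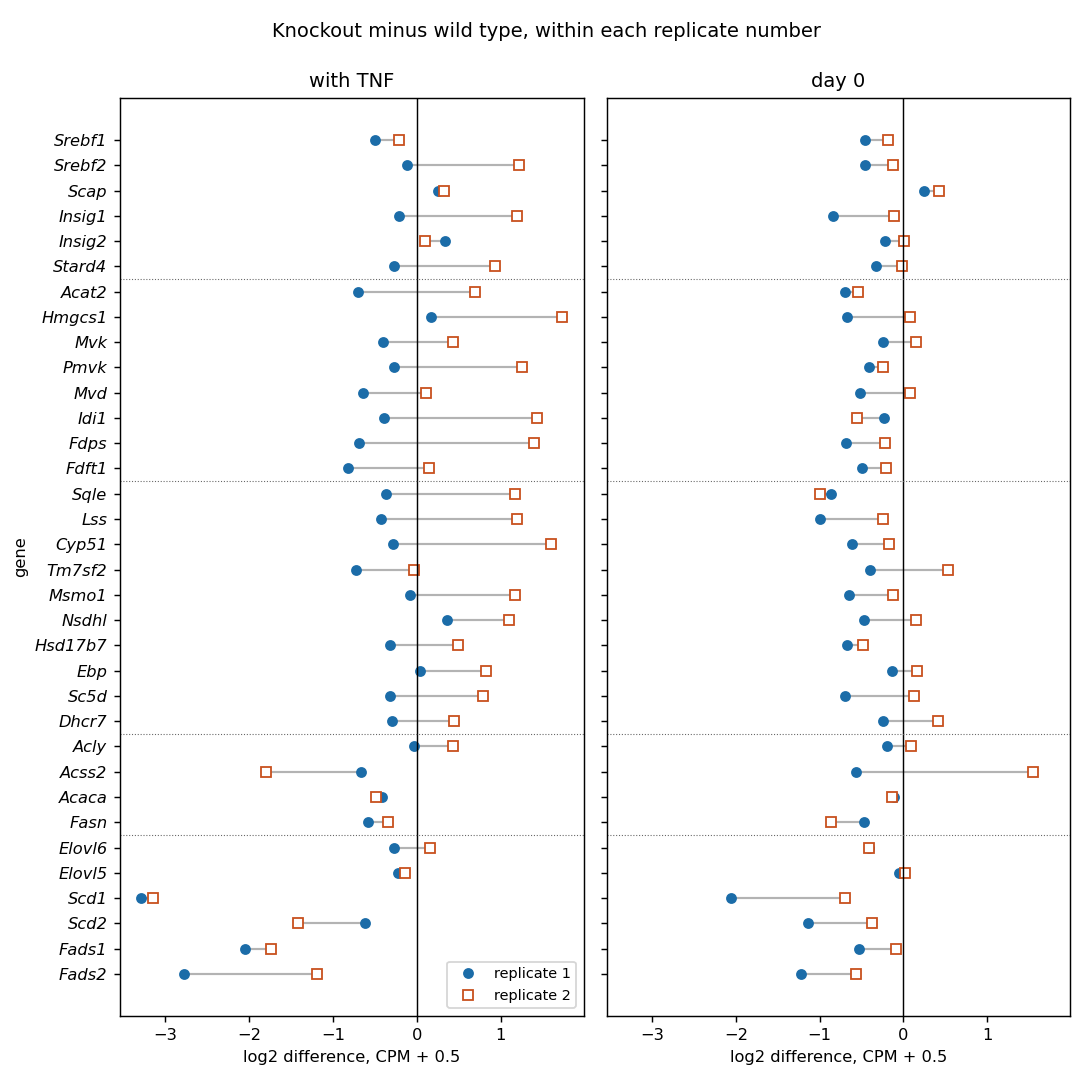
Each row is a gene and each point the log2 difference, knockout minus wild type, within replicate 1 (filled circles) or replicate 2 (open squares), with TNF on the left and at day 0 on the right. With TNF the sterol enzymes split by replicate, whereas Fads1, Fads2, Scd1 and Scd2 lie left of 0 in both replicates.

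Among the genes of fatty acid synthesis, Acss2 was higher and Fasn lower with TNF in each replicate of both genotypes. Acss2, which turns acetate into acetyl-CoA, stood at 40.0 and 27.9 CPM in TNF-treated knockout cells, above 7.72 and 17.3 CPM in day 0 knockout cells. Acss2 in wild type stood at 63.5 and 98.6 CPM with TNF, above 11.6 and 5.602 CPM at day 0. Neither genotype's groups overlapped, and the 2 TNF-treated wild-type libraries were the highest of the 8. The log2 difference was 3.21 ± 0.53 in wild type, at the edge of the threshold without the block (limma adjusted p = 0.0503) and past it with the block (0.0136). The blocked call was lost without wild-type TNF replicate 2 (0.125) or day 0 replicate 2 (0.0793). In the knockout the log2 difference of 1.49 ± 0.53 did not pass (adjusted p = 0.182, and 0.0713 with the limma block; DESeq2 with the block 0.0196). The TNF-treated knockout libraries stood below both TNF-treated wild-type libraries, a log2 difference of -1.23 ± 0.53 that did not pass (adjusted p = 0.459, and 0.172 with the block).

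Fasn, the fatty acid synthase, stood at 141 and 20.9 CPM in TNF-treated knockout cells and 238 and 39.9 CPM in day 0 knockout cells. In wild type Fasn stood at 211 and 26.8 CPM with TNF and 329.6 and 72.9 CPM at day 0. Every group overlapped the others, since replicate 2 was far below replicate 1 throughout, while within each replicate TNF values were lower. The log2 differences were -0.83 in the knockout and -1.03 in wild type, with an SE of 1.46 without the block and 0.21 with it. Fasn thus fell in both genotypes with the block (limma adjusted p = 0.0299 in the knockout and 0.0298 in wild type) and in neither without it (0.853 and 0.948). The blocked knockout call was lost without any 1 of the 4 knockout libraries (0.0710 to 0.173). The blocked wild-type call was lost without knockout day 0 replicate 1 or 2, wild-type TNF replicate 2 or wild-type day 0 replicate 2 (0.0591 to 0.205), and with no filter (0.0506). Acly, which splits citrate into acetyl-CoA, and Acaca, acetyl-CoA carboxylase, passed in no comparison, with TNF log2 differences of 0.05 and -0.22 in the knockout and -0.20 and 0.10 in wild type.

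Of the 34 genes, Fads1 was the one that passed in limma without the block with all libraries, at a pseudocount of 0.5 and a filter of 1 CPM. At a pseudocount of 1 or a filter of 5 CPM, 1 member was also called higher with TNF in wild type. Fads1 encodes the desaturase that makes arachidonic and eicosapentaenoic acid from their precursors. It stood at 29.9 and 29.8 CPM in TNF-treated knockout cells, against 149 and 179.7 CPM in day 0 knockout cells. In wild type Fads1 stood at 126 and 101 CPM with TNF and 216 and 191 CPM at day 0. The TNF-treated knockout libraries were thus far below the other 6, and each group was apart from the others.

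With TNF, Fads1 fell in the knockout by 2.43 ± 0.23 log2 units without the block (limma adjusted p = 0.00661) and with it (0.00086). The unblocked call was lost without knockout TNF replicate 2 (adjusted p = 0.0562) or knockout day 0 replicate 2 (0.0560), and when only the 4 knockout libraries were fitted (0.0522). The blocked call was kept without any 1 of the 8 libraries. In wild type the log2 difference was -0.85 ± 0.23, which passed with the block alone (adjusted p = 0.0346, and 0.177 without it). That blocked call was lost without any 1 of the 4 wild-type libraries (0.0654 to 0.233) and with no filter (0.0537).

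Between genotypes with TNF, Fads1 differed by -1.90 ± 0.23 log2 units (limma adjusted p 0.0145 with the block and 0.0876 without). The blocked call was lost without knockout TNF replicate 2 (0.0927) or wild-type TNF replicate 2 (0.140). At day 0 the difference was -0.31 ± 0.23 (limma adjusted p with the block 0.908). For knockout against wild type with TNF, limma without the block called 0 members (1 lower at unadjusted p under 0.05, edgeR 0, DESeq2 1 lower), where 0.0082% of all genes were called. With the block it called 3 members, Fads1, Fads2 and Scd1, all lower in the knockout, where 5.53% of all genes were higher and 3.75% lower, so that the members called lower were 8.82% of 34. The blocked count was 0 without replicate 2 of TNF-treated knockout or wild type, and 1 without replicate 1 of TNF-treated wild type or of day 0 knockout. Without replicate 1 of TNF-treated knockout it was 1 lower, Fads1, and 3 higher in the knockout, Insig1 (log2 1.28, adjusted p = 0.0484), Hmgcs1 (1.77, 0.0235) and Cyp51 (1.39, 0.0431).

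Fads2, the desaturase of the step that opens polyunsaturated fatty acid synthesis, lies beside Fads1 on chromosome 19. It stood at 4.87 and 1.05 CPM in TNF-treated knockout cells and 26.8 and 4.84 CPM in day 0 knockout cells. Wild-type Fads2 stood at 36.3 and 3.05 CPM with TNF and 63.1 and 7.42 CPM at day 0. Replicate 1 was above replicate 2 in every group, and the TNF-treated knockout library was the lowest of its replicate number in both. With TNF in the knockout the log2 difference was -2.06 ± 1.52 without the block (limma adjusted p = 0.546) and fell past the threshold with it (± 0.39, 0.0124), a call lost without knockout day 0 replicate 1 or 2 (0.0529 and 0.0980). Against wild type with TNF it was -1.99 ± 1.52 (adjusted p = 0.797, and 0.0336 with the block). That blocked call was lost without any 1 of the 8 libraries (0.0510 to 0.160), with the 4 TNF libraries alone (0.0791) and with no filter (0.0622).

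Scd1 and Scd2 put the double bond into stearate and palmitate. Scd1 stood at 3.55 and 0.422 CPM in TNF-treated knockout cells and 12.2 and 1.07 CPM in day 0 knockout cells. In wild type Scd1 stood at 39.1 and 7.68 CPM with TNF and 52.4 and 2.04 CPM at day 0. Both TNF-treated knockout libraries were below both TNF-treated wild-type libraries, and replicate 1 was far above replicate 2 in every group. The log2 difference with TNF was -3.22 ± 1.73 without the block (limma adjusted p = 0.596) and ± 0.54 with it (0.0253). The blocked call was lost without knockout TNF replicate 1 or 2, knockout day 0 replicate 1, or wild-type TNF replicate 1 or 2 (0.0502 to 0.202). Scd2 stood at 402 and 106 CPM in TNF-treated knockout cells and 286 and 51.8 CPM in day 0 knockout cells. In wild type Scd2 stood at 615 and 284 CPM with TNF and 632 and 67.6 CPM at day 0. It was lower in the knockout in both replicates at both times, by -1.01 with TNF and -0.76 at day 0, and did not pass (adjusted p with the block 0.203 and 0.918). The 2 genes are similar in sequence, and the treatment of shared reads is not given.

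The 2 elongases among the 34 genes, Elovl6 and Elovl5, were lower with TNF in both genotypes and in both replicates. Elovl6, which lengthens palmitate, stood at 13.1 and 3.38 CPM in TNF-treated knockout cells and 23.5 and 13.5 CPM in day 0 knockout cells. In wild type it stood at 15.9 and 2.97 CPM with TNF and 31.5 and 18.1 CPM at day 0. Its wild-type log2 difference of -1.69 fell past the threshold with the block (limma adjusted p = 0.0476, and 0.563 without it), and the knockout difference of -1.34 just missed (0.0524 with the block; DESeq2 with the block 0.0113). The wild-type call was lost without any 1 of 7 libraries, wild-type TNF replicate 1 being the exception (0.0511 to 0.289), with a pseudocount of 0.1 (0.05003), with no filter (0.0882), under median-ratio scaling (0.0508) and with edgeR (0.0582).

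Elovl5, which lengthens polyunsaturated fatty acids, stood at 66.0 and 68.6 CPM in TNF-treated knockout cells, below 108 and 96.4 CPM in day 0 knockout cells. Elovl5 in wild type stood at 77.4 and 75.5 CPM with TNF, below 112 and 95.3 CPM at day 0. The TNF and day 0 libraries of Elovl5 did not overlap in either genotype, and replicates were close. The knockout log2 difference was -0.60 ± 0.21 (adjusted p = 0.182, and 0.0282 with the block), and the wild-type one -0.43 ± 0.21 (0.520, and 0.109 with the block). The blocked knockout call was lost without any 1 of the 4 knockout libraries (0.0772 to 0.166), with those 4 alone (0.0667), under both other scalings (0.0621 and 0.0695) and with edgeR (0.0752).

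**Figure D4:**
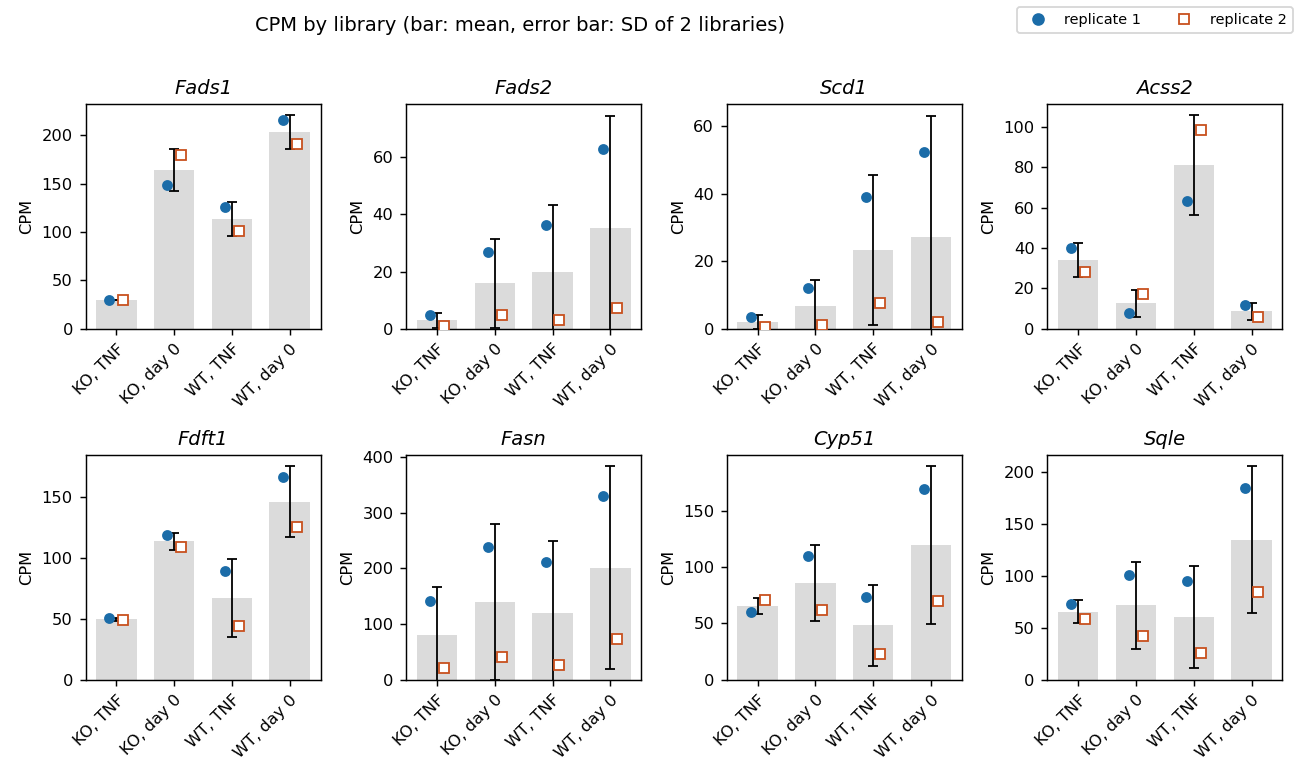
CPM of 8 genes in every library on linear axes from 0, with bars at the group mean and error bars of 1 SD over the 2 libraries of each group, ordered from knockout with TNF to wild type at day 0. Fads1 stands at 29.9 and 29.8 CPM in the TNF-treated knockout, Acss2 is highest in TNF-treated wild type, and in Fads2, Scd1 and Fasn replicate 1 exceeds replicate 2 in every group.

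Whether the TNF response itself differed with Rbpj was tested as the difference of the 2 responses. Limma called 0 members (1 lower at unadjusted p under 0.05), and 0 with the block (2 higher and 3 lower at unadjusted p under 0.05), and of all genes 0% were called in either. edgeR called 0 with and without the block, and DESeq2 called 1, Fads1, in both (adjusted p = 0.0086 without the block and 5.6e-06 with it). For Fads1 the limma difference of responses was -1.58 ± 0.33 (adjusted p = 0.641, and 0.104 with the block). Scd1 had a difference of -1.84 and Acss2 of -1.72, neither past the threshold (adjusted p with the block 0.275 and 0.271). Of the 18 sterol enzymes, 15 had a positive difference of responses, with a median of 0.74, and 14 had one under both other scalings, with edgeR and with DESeq2. Over all genes the median was 0.01. This median was 0.07 and 0.12 with 10 of 18 positive without wild-type TNF replicate 2 or wild-type day 0 replicate 1, 0.35 without day 0 replicate 2 of the knockout, and 1.39 and 1.17 with all 18 positive without the other wild-type libraries. None of the 18 passed singly with all libraries; Hmgcs1 did with the block when knockout TNF replicate 1 was left out (2.06, adjusted p = 0.0481).

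Genes around the pathway were read in 5 lists. With TNF, the medians of these lists ran from -0.04 to 0.16 log2 units in the knockout and from -0.22 to 0.02 in wild type. Under TMM scaling the sterol efflux median in the knockout turned to 0.03 and the sterol sensing median in wild type turned to 0.04. Of 20 measured genes of SREBP processing and sterol sensing, 2 were lower with TNF in the knockout with the block and 0 were called in wild type. The first was Ch25h, which makes an oxysterol that restrains SREBP, at 5.58 and 1.002 CPM in TNF-treated knockout cells and 34.5 and 102 CPM in day 0 knockout cells (log2 -4.31 ± 1.19, limma adjusted p = 0.0421 with the block and 0.102 without). Wild-type Ch25h stood at 15.4 and 2.502 CPM with TNF and 20.05 and 110 CPM at day 0. The other was Nfya, a subunit of NF-Y, at 99.0 and 81.2 CPM in TNF-treated knockout cells and 170.2 and 144 CPM in day 0 knockout cells (-0.80 ± 0.15, limma adjusted p = 0.0123 with the block and 0.107 without). Of 14 genes of the isoprenoid branch, 2 were higher with TNF in the knockout with the block, Nus1 and Pdss1, and 0 were called in wild type. None of the genes in these 2 lists was called without the block. The knockout calls of Ch25h and Nfya were lost without knockout TNF replicate 2 or either knockout day 0 library (adjusted p up to 0.250 and 0.0880), that of Nus1 without replicate 2 of either knockout group (up to 0.116) and that of Pdss1 without any 1 of the 4 knockout libraries (up to 0.154).

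Shares of all genes to set beside the list counts are, for TNF in the knockout, 12.2% higher and 13.7% lower with the block and 3.09% and 2.01% without it, and for TNF in wild type 5.54% and 4.71% with it and 0.812% and 0.369% without. Of 21 further fatty acid genes tested, 2 were higher with TNF in the knockout without the block, and 7 higher and 2 lower with it; in wild type it was 1 higher without it, and 2 higher and 1 lower with it. Acsl1, which activates long-chain fatty acids, stood at 457 and 605 CPM in TNF-treated knockout cells and 58.6 and 102 CPM in day 0 knockout cells (log2 2.76 ± 0.58, limma adjusted p = 0.0482). In wild type Acsl1 stood at 714 and 2408 CPM with TNF and 74.2 and 83.4 CPM at day 0 (4.05 ± 0.58, adjusted p = 0.0376). Elovl7, another elongase, had a log2 difference of 2.76 ± 0.45 with TNF in the knockout (adjusted p = 0.0245), and Elovl1, an elongase of very long chains, one of 0.76 ± 0.27 (0.190, and 0.0449 with the block). Without the block, the knockout calls of Acsl1 and Elovl7 were lost without any 1 of the knockout or wild-type day 0 libraries (up to 0.256 and 0.125), and the wild-type call of Acsl1 without any library but wild-type TNF replicate 1 (up to 0.260). With the block these 3 calls were kept without any 1 of the 8 libraries.

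Of 21 glycerolipid genes, 3 were higher with TNF in the knockout without the block, Agpat4, Lpcat1 and Lpin3, which act in phospholipid and triglyceride synthesis; with the block 7 were higher and 2 lower. Without the block the calls of Agpat4 and Lpcat1 were lost without any 1 of the knockout or wild-type day 0 libraries (up to 0.163 and 0.193), and that of Lpin3, tested in 6 such fits, without any 1 of the 4 day 0 libraries (up to 0.165). With the block Agpat4 and Lpcat1 were called without any 1 of the 8 libraries, and Lpin3 was lost without knockout day 0 replicate 2 (0.0607). In wild type it was 0 without the block, and 2 higher and 1 lower with it. Of 16 genes of sterol efflux, storage and transport, 1 was lower with TNF in the knockout without the block, and 1 higher and 5 lower with it; in wild type the counts were 0, and 2 higher and 2 lower. Apoe, the lipoprotein that carries effluxed cholesterol, stood at 181 and 162 CPM in TNF-treated knockout cells and 2766 and 2237 CPM in day 0 knockout cells (-3.86 ± 0.50, limma adjusted p = 0.0126). That call was lost without any 1 of the 4 knockout libraries (up to 0.0952) and, with the block, was kept without any 1 of the 8. In wild type Apoe stood at 236 and 221 CPM with TNF and 3103 and 1026 CPM at day 0 (-2.96 ± 0.50, adjusted p = 0.0540, and 0.00741 with the block, 0.0510 without wild-type TNF replicate 2). Abca1, which exports cholesterol, was lower in TNF-treated knockout than wild-type cells, at 391 and 402 CPM in the knockout and 734 and 1853 CPM in wild type (-1.55 ± 0.35, limma adjusted p = 0.0442 with the block and 0.264 without). This blocked call was lost without any library but wild-type TNF replicate 1. Between genotypes with TNF and the block, this list had 1 gene higher in the knockout and 2 lower. The isoprenoid list had 1 higher and 0 lower, the further fatty acid genes 2 and 1, and the glycerolipid genes 2 and 0. In the list of SREBP processing and sterol sensing 0 were called. Of all genes, 5.53% were higher and 3.75% lower.

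Values of cell cycle and interferon genes stand here beside those of the 34 genes, and their part in the differences above was not tested. Of both lists, 0 genes were called in any comparison without the block. Of 22 cell cycle genes, 21 were lower with TNF in the knockout, with a median of -1.33 log2 units and 8 called lower with the block, where 13.7% of all genes were. In wild type all 22 were lower, with a median of -1.36 and 2 called lower with the block, where 4.71% of all genes were. Between genotypes all 22 were lower in the knockout in the fit over both replicates, with medians of -0.48 with TNF and -0.65 at day 0 and 0 called. At day 0 the gap lay mainly in replicate 2, where Mki67 stood at 210 CPM in the knockout and 770 CPM in wild type. In replicate 1 at day 0 some were higher in the knockout, among them Mcm2 (220 against 205 CPM) and Mcm4 (195 against 176 CPM). Of 20 type I interferon-stimulated genes, all were lower with TNF in the knockout, with a median of -1.36 and 6 called lower with the block, and 12 of 20 were higher in wild type, with a median of 0.17 and 0 called. Against wild type, all 20 were lower in the knockout with TNF and higher at day 0, with medians of -0.76 and 0.74 and 0 called.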

How the data were processed

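Poly-A RNA of 8 libraries was sequenced (column-purified total RNA, NEBNext libraries, per the labels' protocols). The deposited values are CPM in 1 table of 24421 genes. The submitters' processing notes name build mm10 and the tools fastp, HISAT2, HTSeq and edgeR, and the sources used here give no versions, annotation or strand setting. The CPM were whole multiples of 1 read in every library (100% within 0.01 of a whole number), so reads and depths were recovered from them. Of the symbols, 27 had been turned into dates. Positions come from GENCODE M21 (GRCm38).

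The test was limma (eBayes with trend, two-sided) on log2(CPM + 0.5) of the 12194 genes that reached 1 CPM in 2 or more libraries, with group as the only term, 4 residual degrees of freedom and Benjamini-Hochberg adjustment over all genes of each of 5 contrasts. The threshold was 0.05. Log2 differences are on that scale, where differences of weakly expressed genes come out too small, and a ± after one is the limma SE. edgeR and DESeq2 on the recovered reads, other pseudocounts, filters and scalings, the 4 libraries of a contrast alone, and each library left out were alternatives. limma 3.58.1, DESeq2 1.42.0 and edgeR 4.0.16 ran in R 4.3.3. The fits were tested on simulated reads.

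The replicate number was taken to pair the libraries: the series states 2 independent experiments, although the labels do not tie the number to the experiment. Replicate 2 minus replicate 1 correlated across genes, which are not replicates, between all 6 pairs of groups (Pearson r 0.577 to 0.805). The fit with the number as a block has 3 residual degrees of freedom.

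Values in every library were given for the SREBP control genes, for members called in any contrast with or without the block, and for the 3 with the largest difference in each contrast; non-member genes were named from written lists. Members and lists were chosen with earlier results of these data known.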

Additional observations from a re-analysis of the deposited data

Results flagged for a closer look

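In both replicates, 2 members had TNF responses of opposite sign in the 2 genotypes. Nsdhl, an enzyme of sterol demethylation, stood at 36.5 and 41.9 CPM in TNF-treated knockout cells and 28.3 and 32.2 CPM in day 0 knockout cells, so it was higher with TNF in both replicates. In wild type Nsdhl stood at 28.3 and 19.3 CPM with TNF and 39.2 and 28.9 CPM at day 0, lower with TNF in both. The difference of the responses, knockout minus wild type, was 0.89 ± 0.43 log2 units and did not pass in limma (adjusted p = 0.976 without a block and 0.247 with one for the replicate number). Acly, ATP citrate lyase, stood at 309 and 229 CPM in TNF-treated knockout cells and 297 and 222 CPM in day 0 knockout cells. In wild type Acly stood at 317 and 169.7 CPM with TNF and 341 and 208 CPM at day 0. Its difference of responses was 0.25 ± 0.58 log2 units and did not pass (limma adjusted p with the block 0.681).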

How the results depend on the processing

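Depth limits the low genes most: Scd1 and Fads2 rest on 8 and 20 reads in TNF-treated knockout replicate 2. With 2 libraries a group there are 4 residual degrees of freedom, and counts of calls turned mainly on the replicate term. Of the members called by limma with all libraries, with or without the block, none was called in the opposite direction in an alternative. Members called only in an alternative were not checked for this. In each set of values that follows, all genes called is the count over both directions. For TNF in the knockout, 6 members and 3162 genes were called with the replicate block and 1 and 622 without it; without the block it was 2 and 1701 with DESeq2, 0 and 71 on the 4 libraries of the comparison, and 0 to 1 members and 43 to 513 genes over the fits without 1 library. With the block those fits gave 1 to 8 members and 898 to 3070 genes. For TNF in wild type, 5 members and 1250 genes were called with the block and 0 and 144 without it. Without the block it was 1 member at a pseudocount of 1 and 1 at a filter of 5 CPM, 2 members and 874 genes with DESeq2, 78 genes with no filter, 28 on 4 libraries and 60 with edgeR, and 0 members and 0 to 84 genes without 1 library. With the block it was 1 member and 784 genes with no filter, 12 members on 4 libraries, 11 members and 2545 genes with DESeq2, and 0 to 9 members and 246 to 1404 genes without 1 library. For knockout against wild type with TNF, 3 members and 1131 genes were called with the block and 0 and 1 without it. Without the block it was 1 member and 593 genes with DESeq2, 13 genes with no filter, 2 and 4 under median-ratio and TMM scaling, and 0 genes at a pseudocount of 0.1, a filter of 5 CPM, on 4 libraries, with edgeR and without any 1 library. With the block it was 619 genes with no filter, 112 on 4 libraries, 2318 with DESeq2, and 0 to 4 members and 0 to 1107 genes without 1 library, the 4 being 3 higher and 1 lower without knockout TNF replicate 1. At day 0, 1 gene was called with the block, 24 with DESeq2 without it, and with the block 0 with no filter, 0 on 4 libraries, 188 with DESeq2 and 0 to 2 without 1 library, with 0 members in each. For the difference of responses, DESeq2 called 1 member with and without the block, and 997 and 78 genes; with the block a pseudocount of 1 gave 1 gene, and the fits without 1 library gave 0 to 1 members and 0 to 322 genes. Over the fits without 1 library and without the block, the member median ran from -0.59 to 0.16 for TNF in the knockout, -1.30 to -0.060 for TNF in wild type, -0.48 to 0.75 for knockout against wild type with TNF, -0.81 to 0.33 at day 0 and -0.21 to 1.01 for the difference of responses. Where such a fit leaves 1 library in a group, that library is assumed to vary like the other groups. The cause of these shifts was not tested.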
